A study of Homo sapiens with 6 samples.

Results

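The genes described here encode ligands and receptors of the EGF receptor system, measured in MDA-MB-231 1833 breast cancer cells labelled S153E-RKIP and in control cells. The 10 genes are the ligand genes HBEGF, EREG, AREG, TGFA, BTC and EPGN and the receptor genes EGFR, ERBB2, ERBB3 and ERBB4. They were chosen by name, with earlier results of these data known. Every probe set annotated to any of them was taken, whatever its level. That gave 32 of the 54613 probe sets tested, and they belong to 8 of the 10 genes. AREG and EPGN had no probe set in the platform annotation used here, so no value is given for either gene. HBEGF had 4 probe sets, EREG 2, TGFA 3, BTC 2, EGFR 9, ERBB2 3, ERBB3 5 and ERBB4 4.

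The series compared 2 groups of 3 Affymetrix HG-U133 Plus 2.0 arrays each. In the first group, 1833 cells had been transduced with a lentiviral vector for S153E-RKIP, a mutant RKIP described as inhibiting Raf-1 more strongly, and were kept in 0.5 µg/ml puromycin. In the second group, the control, the same cells carried the vector, and the labels do not say whether it was kept in puromycin. All cells grew in medium with 10% serum, penicillin and streptomycin, the labels give no clone, and 1833 is a bone-growing subline of the MDA-MB-231 line. The labels name biological replicates and give no origin for each, so the p-values reflect only how far these samples scatter, and some of that may be technical.

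EGF family ligands are made as membrane proteins that are cut free by ADAM proteases, and they bind receptors of the ERBB family on the same or on neighbouring cells. TGF-alpha and amphiregulin bind the EGF receptor, while HB-EGF, epiregulin and betacellulin bind both the EGF receptor and ERBB4. A bound receptor pairs with another ERBB receptor and starts signalling through Ras, Raf, MEK and ERK, the cascade that RKIP restrains. In many cell types transcription of some ligand genes, HBEGF among them, is known to be switched on by that same cascade. MDA-MB-231 is known as a basal-like line that is rich in EGF receptor and lacks ERBB2 amplification.

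Checks of the labels and the arrays came first. Array medians ran from 5.60 to 5.67 on the log2 scale of the signals. On the second principal component over genes (21.6% of the variance) S153E-RKIP replicate 1 stood apart from replicates 2 and 3. PEBP1, which encodes RKIP, differed by -0.093 (SE 0.058, limma adjusted p = 0.473), S153E-RKIP minus control. The labels name an HMGA2 shRNA as the source of the cells that their titles call S153E-RKIP, so HMGA2 was also read, and it differed by -0.023 (SE 0.058, limma adjusted p = 0.882). Neither gene was called, and none of their other probe sets was called in the fit over all probe sets. The widest difference among those was -0.26 for HMGA2 1567224_at (limma adjusted p = 0.278). So neither gene bears out the labels, and whether its probe sets read a transcript of the vector was not tested. Each direction given here is that of the arrays labelled S153E-RKIP. All 6 basal and mesenchymal markers measured (VIM, CD44, AXL, CAV1, MSN and ETS1) lay above the median level of all genes, as did 5 of 9 luminal markers. CDH1, PGR, FOXA1 and TFF1 of the luminal list lay below it, and so did all 7 blood cell markers. ESR1 of the luminal list lay close to it, above 50.1% of all genes. The summed linear signal of the blood cell markers ran from 393 to 416 in S153E-RKIP cells and from 361 to 365 in control cells, and none of the 7 was called. Of 7 stromal and endothelial markers 2 lay above the median level of all genes, COL1A1 and PECAM1. The sum of these 7 ran from 626 to 697 in S153E-RKIP cells and from 594 to 625 in control cells, and none was called. The part of these markers in the results on ligands and receptors was not tested. In RNA from a whole culture, a change in how many cells carry a transcript and a change in the amount per cell cannot be told apart.

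On the arrays labelled S153E-RKIP, transcripts of the ligand genes TGFA and HBEGF were higher, TGFA by 1.54-fold and HBEGF by 1.42-fold on their brightest probe sets. No receptor probe set and no probe set of EREG or BTC was called at an adjusted p under 0.05. Of the 32 probe sets 3 were called, all of them higher, beside 1.05% of all 54613 probe sets (574 of them, 0.366% higher and 0.685% lower) in the same fit. The 3 make up 9.38% of the 32, and because 2 of them read the same gene they are not independent. All 3 were among the 16 members whose mean over the 6 arrays exceeded the median of all probe sets, 5.63. None of the 16 dimmer members was called, and whether their signals stood above background was not measured. Brighter probe sets were called more often in general, 1.86% of all those above that median. The median difference was 0.0019 over the members and 0.010 over all probe sets, and the median size of the difference was 0.12 over the members against 0.079 over all probe sets. At an unadjusted p under 0.05 there were 10 member probe sets, or 31.2% of them, against 13.2% of all probe sets. TGFA and EGFR gave 3 each of these, HBEGF 2, and BTC and ERBB3 1 each, so they are not independent either. The share among brighter probe sets alone was not taken for this count. The members were chosen with earlier results of these data known, so these shares describe them and test nothing further.

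**Figure D1:**
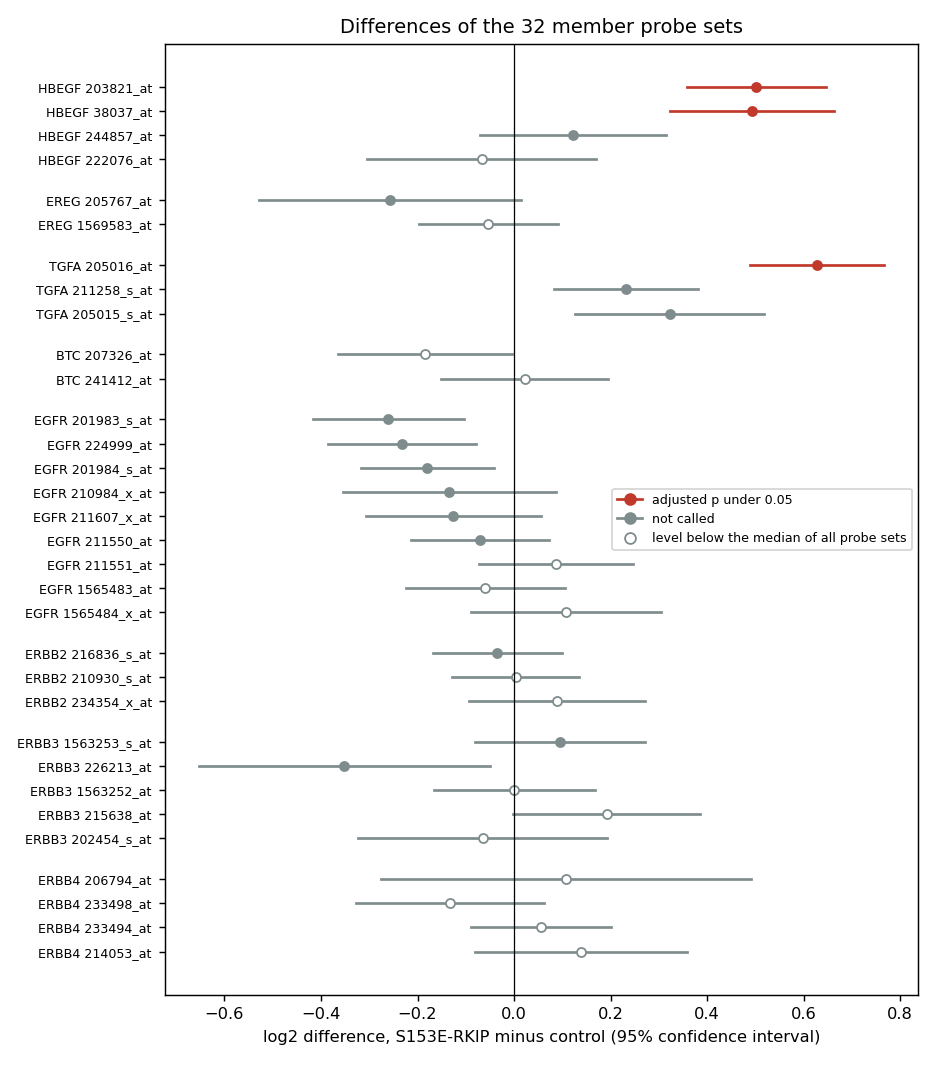
Log2 difference (S153E-RKIP minus control, horizontal axis) of each of the 32 probe sets with its 95% confidence interval, grouped by gene, with red for an adjusted p under 0.05 and open points for levels below the median of all probe sets. The red intervals are those of TGFA 205016_at and HBEGF 203821_at and 38037_at, and they end above 0.32.

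The ligand genes that were called and the ligand gene EREG, which was not, can be set beside each other by the sequence upstream of their start sites. The 250 bases before the RefSeq start site are given for HBEGF (chr5:140346604-140346853, minus strand), for the outer of 2 start sites of TGFA (chr2:70553827-70554076, minus strand) and for EREG (chr4:74364895-74365144, plus strand), all on GRCh38.p14. Capitals mark matches to any of the motifs searched.
HBEGF: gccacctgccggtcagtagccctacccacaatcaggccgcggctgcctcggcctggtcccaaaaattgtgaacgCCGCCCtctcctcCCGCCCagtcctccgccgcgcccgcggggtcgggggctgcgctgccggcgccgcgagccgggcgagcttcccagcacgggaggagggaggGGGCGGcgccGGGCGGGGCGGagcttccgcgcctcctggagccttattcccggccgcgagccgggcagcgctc
TGFA: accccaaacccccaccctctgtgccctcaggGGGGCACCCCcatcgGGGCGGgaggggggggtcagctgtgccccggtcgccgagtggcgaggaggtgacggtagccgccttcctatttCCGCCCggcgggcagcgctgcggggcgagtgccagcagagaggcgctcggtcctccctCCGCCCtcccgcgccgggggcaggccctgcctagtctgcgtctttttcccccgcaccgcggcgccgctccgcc
EREG: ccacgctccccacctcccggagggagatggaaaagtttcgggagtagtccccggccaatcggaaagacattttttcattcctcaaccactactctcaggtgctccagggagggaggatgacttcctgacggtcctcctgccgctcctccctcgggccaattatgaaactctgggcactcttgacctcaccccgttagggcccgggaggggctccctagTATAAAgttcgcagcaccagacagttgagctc
The motifs were searched on both strands. HBEGF held 5 matches to the GC box GGGCGG that SP1 can bind, and those at -63 and -58 share a base. The outer TGFA window held 3 such matches and 1 to the NF-kB consensus, at -219. The window of the inner TGFA start site (chr2:70553447-70553696, minus strand, GC content 64%) held no match to any motif searched, so the start sites of TGFA differ in this. Like the inner TGFA window, that of EREG held neither a GC box nor the NF-kB consensus, and it held the TATA box letters TATAAA at -32. GC boxes were in 42.6% of the 35116 windows of the same length in the RefSeq table, TATAAA in 10.7% and the NF-kB consensus in 5.21%. No match was found in the 3 printed windows to the AP-1 motif TGANTCA (6.57% of all windows), the cyclic AMP element TGACGTCA (1.65%), the EGR1 motif GCGNGGGCG (8.41%) or the serum response element by its CArG consensus (1.16%). The GC content was 76.4% for HBEGF, 75.6% for the outer TGFA window and 58% for EREG. Promoter windows were found for 9 of the 10 genes, all but ERBB3. Among the other genes that were measured and not called, ERBB4 and the first EGFR start site had GC boxes. The second EGFR start site, BTC and ERBB2 had none. The AP-1 motif was matched at the second EGFR start site (-232 and -136) and in ERBB2 (-222). That EGFR start site also held TATAAA at -146 and -36. A match of letters is a description and not a measured binding site.

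TGFA encodes TGF-alpha, a ligand of the EGF receptor. Its brightest probe set, 205016_at, had log2 signals of 8.72, 8.79 and 8.74 in S153E-RKIP replicates 1, 2 and 3, against 8.09, 8.18 and 8.09 in control replicates 1, 2 and 3. Each S153E-RKIP array lay above each control array, and the gap between the groups was wider than the range within either. This amounts to a log2 difference of 0.63, with an SE of 0.061, an interval of 0.49 to 0.77 and a limma adjusted p of 0.00208. Without any single array it ran from 0.61 to 0.66 and remained called, with an adjusted p from 0.0107 to 0.0253.

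The dimmer probe sets of TGFA pointed the same way without being called. Probe set 211258_s_at read 6.67, 6.75 and 6.77 in S153E-RKIP cells, against 6.42, 6.56 and 6.52 in control cells. Probe set 205015_s_at read 6.51, 6.60 and 6.38 in S153E-RKIP cells, against 6.09, 6.32 and 6.11 in control cells. In both, the arrays of the groups did not overlap. Their differences were 0.23 (95% confidence interval 0.083 to 0.38, limma adjusted p = 0.189) and 0.32 (95% confidence interval 0.13 to 0.52, limma adjusted p = 0.166). With the mean of the 3 probe sets in place of the brightest, TGFA had a difference of 0.39 and stayed called (limma adjusted p = 0.0114). The probe sets of TGFA did not pass the test of whether they differ from each other (limma diffSplice F test, adjusted p = 0.133), though they did after quantile normalisation again (adjusted p = 0.0474).

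HBEGF encodes heparin-binding EGF-like growth factor, whose membrane form is also the diphtheria toxin receptor. Probe set 203821_at had log2 signals of 10.88, 10.80 and 10.76 in S153E-RKIP replicates 1, 2 and 3, against 10.33, 10.26 and 10.34 in control replicates 1, 2 and 3. Probe set 38037_at read 10.22, 10.02 and 10.21 in S153E-RKIP cells and 9.70, 9.59 and 9.69 in control cells. On both, all S153E-RKIP arrays lay above all control arrays. The differences were 0.50 (SE 0.063, 95% confidence interval 0.36 to 0.65, limma adjusted p = 0.00767) and 0.49 (SE 0.075, 95% confidence interval 0.32 to 0.66, limma adjusted p = 0.0189).

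The size of the HBEGF difference held when single arrays were left out, and the calls did not. For 203821_at it ran from 0.47 to 0.53, and the limma adjusted p was 0.0514 without S153E-RKIP replicate 2 and 0.0549, 0.0570 and 0.0505 without control replicate 1, 2 or 3. The call of 203821_at remained without S153E-RKIP replicate 1 or 3. For 38037_at the difference ran from 0.46 to 0.56 and only the fit without S153E-RKIP replicate 2 kept the call. Its limma adjusted p was 0.0725 and 0.0860 without S153E-RKIP replicate 1 or 3, and 0.0920, 0.116 and 0.0983 without control replicate 1, 2 or 3.

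The other HBEGF probe sets were dim and gave other values. Probe set 244857_at read 5.95, 5.92 and 5.85 in S153E-RKIP cells and 5.96, 5.75 and 5.66 in control cells, and the groups overlapped. Probe set 222076_at read 5.20, 5.07 and 5.20 in S153E-RKIP cells and 5.45, 5.20 and 5.03 in control cells, again with overlap. Their differences were 0.12 and -0.067, with 95% confidence intervals of -0.071 to 0.32 and -0.30 to 0.17. The 4 probe sets of HBEGF differed from each other in the change they gave (limma diffSplice F test, adjusted p = 0.0232, beside 1.11% of 10523 genes called by it), and HBEGF was the only member gene to pass that test. That call was lost when dim probe sets were left out (adjusted p = 0.221 with only those above the median) and without control replicate 1 or 2 (0.115 and 0.216) or S153E-RKIP replicate 1, 2 or 3 (0.141, 0.121 and 0.106). With the mean of the 4 probe sets, the HBEGF difference was 0.26 and was not called (limma adjusted p = 0.0906).

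**Figure D2:**
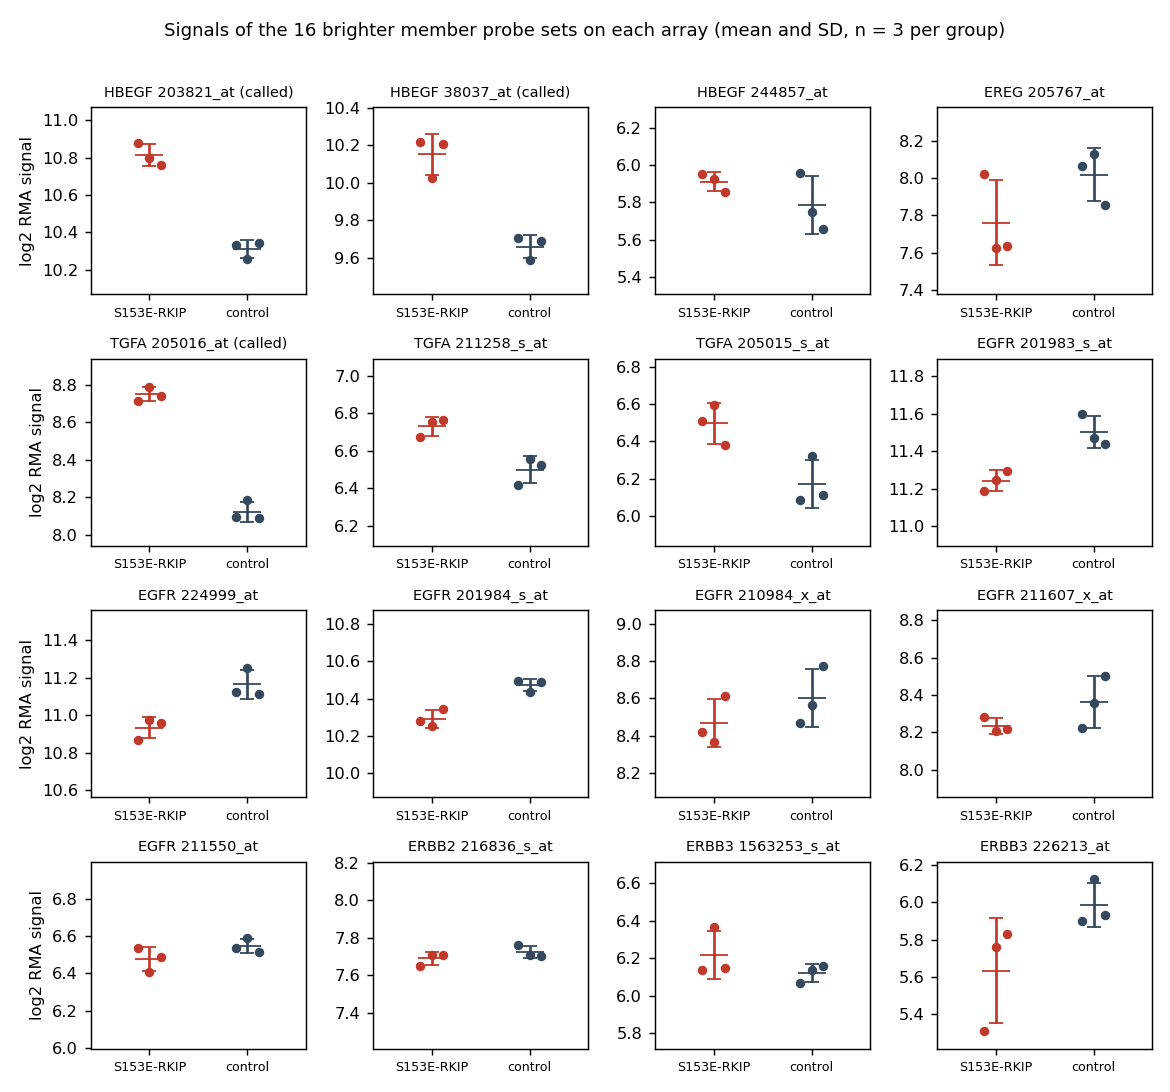
Log2 RMA signal (vertical axis, each panel spanning 1 log2 unit) on each array for the 16 member probe sets above the median level, with points for arrays and bars for the mean and SD (n = 3 per group). The S153E-RKIP points stand above the control points for TGFA 205016_at and for HBEGF 203821_at and 38037_at, and below them for the first 3 EGFR panels, which were not called.

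EREG encodes epiregulin, and its brighter probe set did not follow TGFA and HBEGF. Probe set 205767_at read 8.02, 7.63 and 7.64 in S153E-RKIP replicates 1, 2 and 3 and 8.07, 8.13 and 7.86 in control replicates 1, 2 and 3. S153E-RKIP replicate 1 lay among the control arrays and replicates 2 and 3 lay below them. The difference of -0.26 had an SE of 0.12 and an interval of -0.53 to 0.014 (limma adjusted p = 0.396), and it was -0.39 without S153E-RKIP replicate 1 (limma adjusted p = 0.159). The dimmer probe set 1569583_at had a difference of -0.053 with overlapping groups.

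BTC encodes betacellulin, and both of its probe sets had a mean under 3.7, far below the median of all probe sets. Probe set 207326_at read 3.54, 3.49 and 3.50 in S153E-RKIP cells and 3.64, 3.59 and 3.85 in control cells. The groups did not overlap, and the difference of -0.18 was not called (95% confidence interval -0.36 to -0.0043, limma adjusted p = 0.367). The other probe set, 241412_at, had a difference of 0.022 with overlapping groups.

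The EGF receptor gene EGFR had the brightest receptor probe sets, and these were lower on the S153E-RKIP arrays without passing the threshold. Probe set 201983_s_at read 11.19, 11.25 and 11.30 in S153E-RKIP cells and 11.60, 11.47 and 11.44 in control cells. Probe set 224999_at read 10.87, 10.97 and 10.96 in S153E-RKIP cells and 11.12, 11.25 and 11.11 in control cells. Probe set 201984_s_at read 10.28, 10.25 and 10.35 in S153E-RKIP cells and 10.49, 10.44 and 10.49 in control cells. On all 3 probe sets each S153E-RKIP array lay below each control array. The differences were -0.26, -0.23 and -0.18, with 95% confidence intervals of -0.42 to -0.10, -0.39 to -0.079 and -0.32 to -0.043. The limma adjusted p was 0.161, 0.202 and 0.267. With a variance estimate that follows the signal level and allows for outlying variances (eBayes with trend and robust estimation), 201983_s_at was called (adjusted p = 0.0312) and the others were not (0.0566 for 224999_at and 0.119 for 201984_s_at).

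The other EGFR probe sets gave smaller differences. The groups overlapped on all 6 of them, and the differences ran from -0.13 for 210984_x_at to 0.11 for 1565484_x_at. The mean over all 9 probe sets of EGFR differed by -0.096 (limma adjusted p = 0.382). The F test did not find that the 9 probe sets gave unlike differences (limma diffSplice, adjusted p = 0.256).

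ERBB2 encodes HER2, a receptor with no known ligand of its own that pairs with the other ERBB receptors. Its brightest probe set, 216836_s_at, read 7.65, 7.71 and 7.71 in S153E-RKIP cells and 7.76, 7.71 and 7.70 in control cells. The groups overlapped, and the difference of -0.035 had an interval of -0.17 to 0.098 (limma adjusted p = 0.828). The other ERBB2 probe sets had differences of 0.0031 and 0.089, and the interval of the wider one ended at 0.27. The sign of the brightest one turned to 0.017 after quantile normalisation again, 0.0060 after removal of the intensity trend and 0.019 with the mean of the 3 probe sets.

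ERBB3 encodes HER3, a neuregulin receptor whose kinase is weak. Probe set 226213_at read 5.31, 5.76 and 5.83 in S153E-RKIP cells and 5.90, 6.12 and 5.93 in control cells. The groups did not overlap, and S153E-RKIP replicate 1 lay far below the other arrays of its group. The difference of -0.35 had an interval of -0.65 to -0.050 (limma adjusted p = 0.312), and it was -0.19 without S153E-RKIP replicate 1 (limma adjusted p = 0.423). The brightest ERBB3 probe set, 1563253_s_at, differed by 0.096 (95% confidence interval -0.081 to 0.27, limma adjusted p = 0.620) with overlapping groups. The remaining 3 ran from -0.065 to 0.19, all with overlap, so the 5 probe sets of ERBB3 had no common direction.

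ERBB4 encodes HER4, which binds neuregulins and some EGF receptor ligands. All 4 of its probe sets had means below the median of all probe sets, and the groups overlapped on each. Their differences ran from -0.13 to 0.14, and the limma adjusted p from 0.534 to 0.813. Probe set 206794_at, the brightest of them, read 5.66, 5.09 and 5.06 in S153E-RKIP cells and 5.40, 4.97 and 5.12 in control cells. Its difference was 0.11, and -0.089 without S153E-RKIP replicate 1.

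Counting groups that do not overlap gives 10 of the 32 member probe sets, 5 higher and 5 lower in S153E-RKIP cells, where 17.1% of all probe sets had groups apart. The 5 higher ones were all 3 of TGFA and both brighter ones of HBEGF. The 5 lower ones were the 3 brightest of EGFR and 1 each of ERBB3 (226213_at) and BTC (207326_at).

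**Figure D3:**
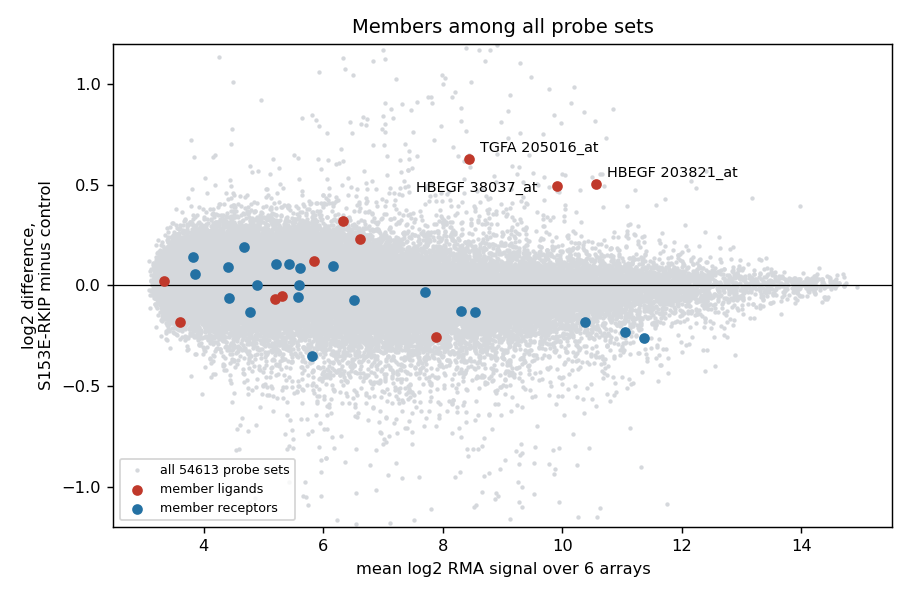
Log2 difference (S153E-RKIP minus control, vertical axis, limited to 1.2 either way, which leaves out 56 probe sets) against mean log2 RMA signal over the 6 arrays for all 54613 probe sets in grey and the members in colour. The 3 called ligand probe sets lie above most grey points at their level, with differences of 0.63, 0.50 and 0.49. Other probe sets lie as high or higher, and by p the 3 rank 103, 213 and 346 among all. The receptors lie between -0.35 and 0.19.

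The rest of the pathway was described by 5 gene lists, each gene read by the brightest probe set of its own, in a fit over 19775 genes. In that fit 376 genes were called, 1.9% of those tested, and TGFA and HBEGF were again the only called members. Of 62 measured list genes only IER3 was called. IER3, an immediate early gene that EGF is known to induce, read 13.26, 13.49 and 13.42 in S153E-RKIP replicates 1, 2 and 3, a mean of 13.39 ± 0.12, against 12.84, 13.06 and 12.97 in control replicates 1, 2 and 3, a mean of 12.96 ± 0.11 (SD, n = 3 each). It rose by 0.43 on the log2 scale (SE 0.082, limma adjusted p = 0.0398). Its call was lost in the fit over all probe sets (limma adjusted p = 0.0583), after quantile normalisation again (0.0636), and without S153E-RKIP replicate 2 or 3 (0.149 and 0.114) or control replicate 1, 2 or 3 (0.178, 0.0786 and 0.160). Of the 16 genes on the list of EGF-induced transcripts the other 15 were not called, and their list had a median difference of -0.028.

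No gene was called among 5 other EGF family ligands, where the smallest p was that of NRG2, a neuregulin gene (0.11, SE 0.058, limma adjusted p = 0.386). None was called among 9 genes of ligand shedding and trafficking. The smallest p there was that of FRMD8, which encodes a partner of the iRhom proteins (-0.16, SE 0.072, limma adjusted p = 0.344). Its sign turned to 0.092 with the mean of its probe sets. ADAM17, the protease that frees TGF-alpha and HB-EGF, differed by 0.0067 (SE 0.081, limma adjusted p = 0.978). The count of list genes with an unadjusted p under 0.05 was 0 in both lists.

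None of 14 measured adaptors and first signalling proteins was called, and all 14 had a difference below 0. Their median was -0.084, against 0.010 over all genes and -0.029 over the 9887 genes above the median level, of which 61.6% had a difference below 0. PIK3R3, a regulatory subunit of PI3 kinase, had the smallest p (-0.22, SE 0.062, limma adjusted p = 0.153). Among 18 receptor brakes and degradation genes none was called, the median was -0.094, and 6 of the 18 had a difference above 0. CBLC, a ubiquitin ligase gene, had the smallest p there (0.32, SE 0.085, limma adjusted p = 0.131). Its level lay above only 43.2% of all genes. At an unadjusted p under 0.05 there were 3 of 14 adaptors, 5 of 18 brakes and 5 of 16 EGF-induced transcripts, beside 15.7% of all genes. Of these brakes CBLC and LRIG1 were higher and HGS, CBLB and SOCS5 lower. Of these EGF-induced transcripts IER3 and LIF were higher and DUSP5, ETV5 and EGR1 lower. LRIG1, which restrains ERBB receptors, differed by 0.37 (limma adjusted p = 0.177) and was called without S153E-RKIP replicate 1 (0.50, adjusted p = 0.0432). It was named after its value was seen. NRDC, an enhancer of ligand shedding, differed by -0.11 (limma adjusted p = 0.422) on its brightest probe set. Read by the average of its probe sets it was called lower (-0.31, adjusted p = 0.0470) and on another probe set when those ending in _x_at or _s_at were left out (-0.51, adjusted p = 0.0305). NRDC, ADAM17 and the further brakes and EGF-induced transcripts listed by direction were also named after their values were seen.

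**Figure D4:**
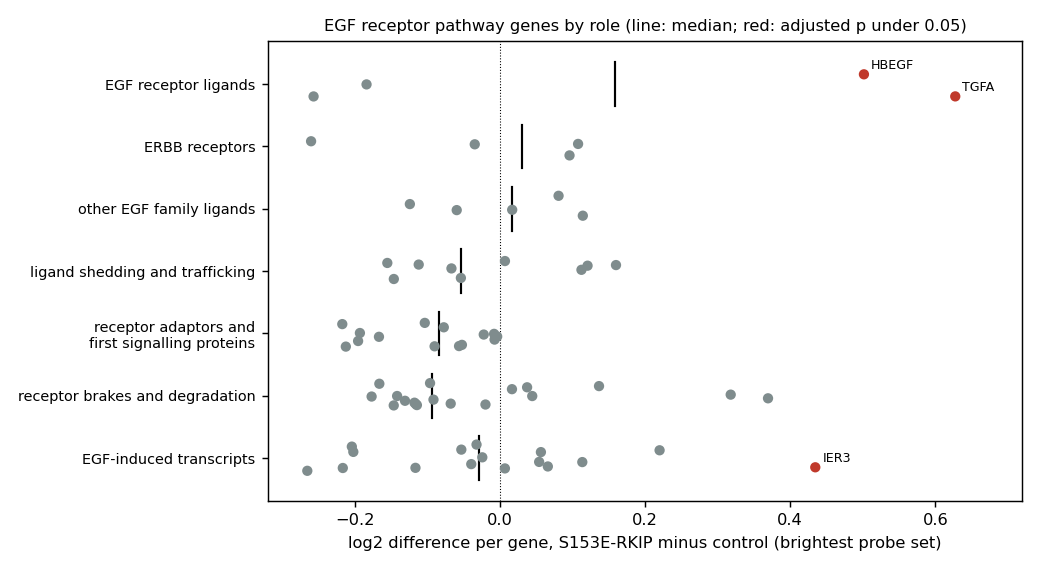
Log2 difference per gene (S153E-RKIP minus control, horizontal axis) for the 8 measured members and the 62 other pathway genes, by role, with red points for an adjusted p under 0.05 and a line at each median. HBEGF, TGFA and IER3 are the red points, and the other points lie between -0.27 and 0.37.

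The genes whose pattern over the 6 arrays was most like that of a called ligand were found by the distance between mean-centred log2 signals among 9882 genes above the median level. For HBEGF 203821_at the nearest were POU2F2, a transcription factor gene, at a distance of 0.0649, PLAUR, the urokinase receptor gene, at 0.0847, and GALNT14, a glycosyltransferase gene, at 0.0925. Their differences were 0.46, 0.49 and 0.45, all called higher (limma adjusted p = 0.00853, 0.0131 and 0.0110). For TGFA 205016_at they were IKBKE, a kinase gene of NF-kB and interferon signalling, at 0.0785, TNIP1, which encodes a partner of the A20 protein, at 0.131, and TMEM132A at 0.135. Their differences were 0.62, 0.56 and 0.67 (limma adjusted p = 0.00182, 0.00529 and 0.00150). IKBKE averaged 7.60 ± 0.043 in S153E-RKIP cells and 6.98 ± 0.068 in control cells (SD, n = 3 each). The groups of all 6 genes stood apart, as did those of 17.1% of all probe sets. Since these genes were picked for their likeness to a called ligand, their direction, calls and separate groups follow from that choice and are no further result.

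**Figure D5:**
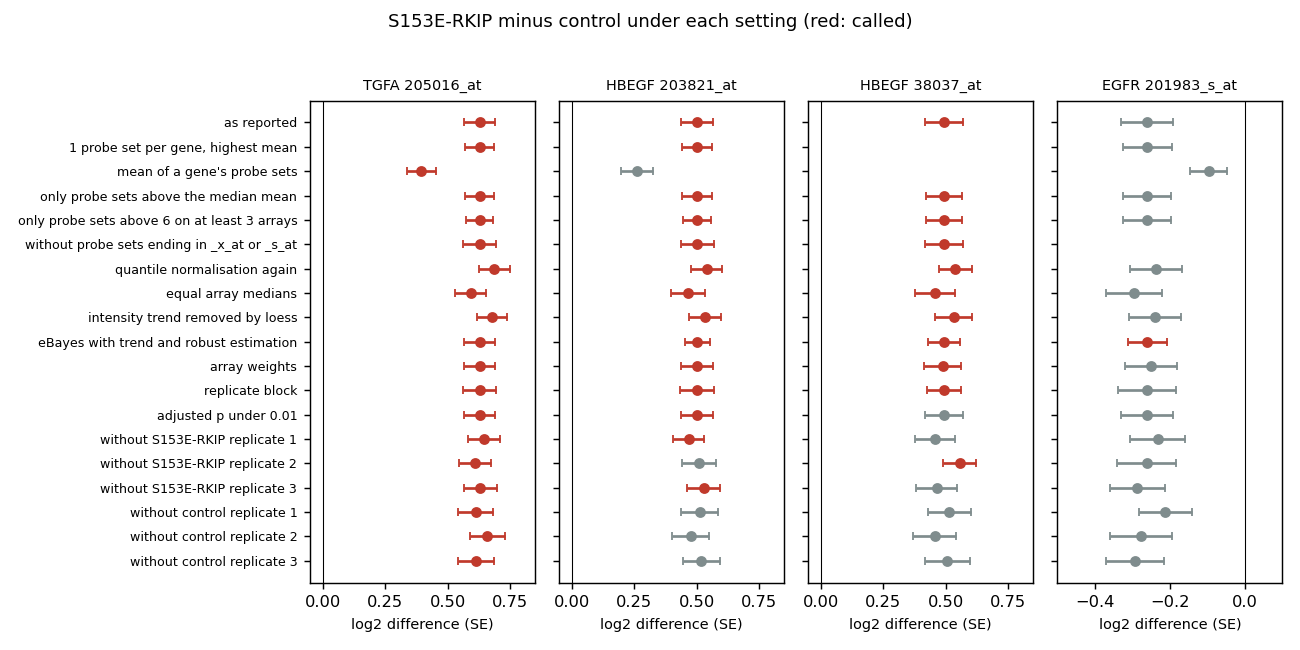
Log2 difference with its SE (S153E-RKIP minus control, horizontal axes) under the reported fit and each alternative setting (rows), with red for a call, for TGFA 205016_at, HBEGF 203821_at and 38037_at and EGFR 201983_s_at. TGFA is red in every row, from 0.59 to 0.69 for this probe set and at 0.39 for the mean of its probe sets. HBEGF turns grey in several rows at little change in size, and also at 0.26 for the mean of its probe sets. EGFR is red in 1 row.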

How the data were processed

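Total RNA was labelled from 1 µg per sample and hybridised to 6 arrays, 3 labelled S153E-RKIP and 3 control, grouped by sample title. The deposited values are log2 signals per probe set that the authors computed by RMA according to the labels' list of tools, per the labels, with its version not given in the sources used here. RMA corrects background, equalises array distributions and summarises probes, so small differences can depend on it, and no detection calls or scanner values were used. Of 54675 probe sets 62 are control probe sets and were left out. Genes come from the platform annotation, with 41091 probe sets of 1 symbol, 1801 of several and 11721 of none. Symbols were checked by gene identifier, 41037 matched and 0 changed.

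Each probe set was tested in limma 3.58.1 under R 4.3.3 (lmFit, eBayes, two-sided, Benjamini-Hochberg over 54613 probe sets, called at an adjusted p under 0.05), with 95% confidence intervals from the moderated variance. No filter on dim signals was applied. Pathway lists used the probe set of highest mean for each of 19775 genes, and diffSplice tested 10523 genes with 2 or more probe sets. On simulated data for this comparison over 54613 probe sets, 26 of 50 changes of 1.3-fold, 48 of 50 of 1.5-fold and all 50 of 2-fold were recovered, with 8 of 54413 unchanged probe sets called. The simulated noise was independent and normal at the moderated variances, and all changes were upward. These rates therefore need not hold for the real arrays. Precision is limited by the 3 arrays a group, with a median SE of 0.077. Members, lists, tests and alternatives were chosen with earlier results of these data known. Named genes are all members, PEBP1 and HMGA2, the called genes of each list (at most 3, or the one with the smallest p) and the 3 genes nearest to each called member. Alternatives covered the unit of the test, dim probe sets, probe sets ending in _x_at or _s_at, normalisation and the variance model. They also covered array weights, a replicate block, the threshold and each array left out. Correlations of the deviations of same-numbered arrays were 0.0862, 0.187 and -0.0222, and those of arrays with unlike numbers ran from -0.191 to 0.101. These few values cannot settle whether the numbers pair the samples, and the main fit took them as unpaired. Figures used matplotlib 3.10.9.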

Additional observations from a re-analysis of the deposited data

How the results depend on the processing

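With 3 arrays a group, the number of called probe sets depended on which arrays entered. Over all probe sets 574 were called, 209 to 450 with 1 array left out. Over the members 3 were called, 1 to 2 with 1 array left out. The member count was 1 without control replicate 1, 2 or 3, the probe set of TGFA. It was 2 for genes read by their brightest probe set, 1 when a gene's probe sets were averaged, 4 with trend and robust estimation and 3 with the replicate block, where 573 of all probe sets were called. The block changed no call among the members, and since the labels tie the arrays by number alone it carries no more weight than that. The count over all units was 376 for genes by brightest probe set, 282 without probe sets ending in _x_at or _s_at, 939 with trend and robust estimation and 245 at an adjusted p under 0.01. In the pathway lists 1 gene was called, 2 when a gene's probe sets were averaged, 0 after quantile normalisation again and at an adjusted p under 0.01, and 0 to 2 with 1 array left out. One member gene passed the test of unlike probe sets, 0 with either filter on dim probe sets, 2 after quantile normalisation again, and 0 to 1 with 1 array left out. For HBEGF with only probe sets above 6 on at least 3 arrays, that test had only its brighter probe sets to compare. The cause of the other changes was not tested.

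TGFA 205016_at kept its call and direction under all 18 alternatives, counting the mean of its gene's probe sets as an alternative. The probe set itself ran from 0.59 to 0.69, and the mean was 0.39. HBEGF 203821_at, counted in the same way, kept its direction under 18 and its call under 13, and the mean was 0.26 and not called. HBEGF 38037_at kept its direction under 16 and its call under 10. Signs turned only among members, pathway genes and label checks that were not called. ERBB2 216836_s_at turned to 0.019 with the mean of its probe sets, 0.017 after quantile normalisation again and 0.0060 after removal of the intensity trend. ERBB2 210930_s_at turned to -0.038, -0.033 and -0.043 under quantile normalisation again, equal medians and trend removal, and ran from -0.015 (without control replicate 2) to 0.021 with 1 array left out. ERBB3 1563252_at (0.00076 as reported) turned to -0.030, -0.035 and -0.039 under the same 3, and ran from -0.053 to 0.043 with 1 array left out, below 0 without S153E-RKIP replicate 1 (-0.053) or control replicate 2 (-0.013) or 3 (-0.027). ERBB3 1563253_s_at turned to -0.026 with the mean of its probe sets, and 202454_s_at ran from -0.145 to 0.033 with 1 array left out, above 0 without S153E-RKIP replicate 1 (0.033) or control replicate 1 (0.028). BTC 241412_at turned to -0.014 with equal medians and ran from -0.044 (without S153E-RKIP replicate 3) to 0.086. ERBB4 206794_at ran from -0.089 (without S153E-RKIP replicate 1) to 0.23 and HBEGF 222076_at from -0.17 to 0.045 (without control replicate 1). FRMD8 turned to 0.092 with the mean of its probe sets. HMGA2 turned to 0.024 after quantile normalisation again, 0.017 after trend removal, and ran from -0.059 to 0.0034 (without S153E-RKIP replicate 1).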

Other observations

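In the reference annotation EPGN, EREG, AREG and BTC follow each other on chromosome 4, with CXCL3, CXCL2 and MTHFD2L before EPGN and PARM1 after BTC. On the S153E-RKIP arrays the neutrophil-attracting chemokine genes CXCL3 and CXCL2 rose by 2.80 and 1.95 on the log2 scale, while the genes measured beyond them in the row were not called. MTHFD2L, a gene of mitochondrial folate metabolism, differed by 0.19 (limma adjusted p = 0.207), EREG by -0.26, BTC by -0.18 and PARM1 by 0.23, and among these 4 PARM1 had the smallest adjusted p, 0.191. CXCL5, on the other side of CXCL3, differed by 0.17 (limma adjusted p = 0.341). CXCL2 was read by 209774_x_at, a probe set that can pair with related transcripts, and its other probe sets gave 0.56 for 1569203_at (limma adjusted p = 0.00858) and 0.094 for 230101_at (limma adjusted p = 0.545), both dim. Over the 5 protein-coding neighbours on each side of all 10 genes, 59 were measured and 2 were called, CXCL3 and CXCL2, which is 3.39% beside 1.9% of all genes. No neighbour of TGFA or HBEGF was called. These neighbours were looked up after the differences of the members had been seen.

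Of the 32 member probe sets 12 had exactly equal signals on 2 or more arrays, as had 36.2% of all probe sets. ERBB2 210930_s_at read 4.89 on all 3 S153E-RKIP arrays, which gives it no spread in that group.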
